A study of Mus musculus with 4 samples.

Results

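The 39 genes described here are the autophagy machinery and its MiT/TFE transcription factors, chosen by matching their symbols to the list of genes with deposited values. All 39 were found among the 17013 genes listed, and all 39 were among the 12470 genes with enough signal to be tested. They were measured by bulk RNA sequencing in mouse bone marrow-derived macrophages of WT genotype, grown from bone marrow with M-CSF and cultured on porous inserts. Cells in both groups received artificial necrotic bone fluid (aNBF), a fluid made from freeze-thawed bone. In the Con group the well under the insert held the fat control medium, the middle layer of freeze-thawed mouse abdominal fat after centrifugation. In the Fat group it held the high-fat-containing medium, the top layer of the same preparation. Bone, marrow and fat were taken from C57BL/6 male mice, whose age was not given in the sources used here. Cells were harvested after 24 h, and each group had 2 libraries. The labels do not state whether the libraries came from separate cultures or animals, so the p-values below measure only the spread between these libraries. There was no culture without aNBF and none without fat-derived medium among the libraries analysed, so the comparison is between layers of a single fat preparation.

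Macroautophagy encloses cytoplasm, organelles or lipid in a double membrane, the autophagosome, and delivers it to the lysosome for breakdown. The ULK1 kinase complex starts the process, a class III PI3-kinase complex marks the growing membrane with the lipid PI3P, and a pair of ubiquitin-like conjugation systems attach small ATG8 proteins (LC3 and GABARAP) to it. Cargo receptors link cargo to ATG8, and TFEB, TFE3 and MITF are transcription factors that move to the nucleus when mTORC1 is off and act on lysosomal and autophagy genes. In macrophages the pathway handles lipid droplets, damaged mitochondria and engulfed material. Much of its control lies in phosphorylation, lipidation and location of the proteins, none of which is measured by RNA levels.

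The ATG8 transcripts are shown first because their gene products are the part of the pathway that is joined to the membrane, and because related genes can share reads. ATG8 proteins are attached to lipid through a glycine near their C-terminal end, which ATG4 proteases expose by cutting off what follows. The last bases of 4 of the mouse coding sequences, ending in the stop codon, are printed from GENCODE vM21 transcripts with the codon of that last glycine in capitals.
Map1lc3a: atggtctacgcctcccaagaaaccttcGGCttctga
Gabarap: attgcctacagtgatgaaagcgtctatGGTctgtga
Gabarapl1: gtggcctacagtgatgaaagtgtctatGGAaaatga
Gabarapl2: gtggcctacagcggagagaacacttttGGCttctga
A single codon stood between the glycine and the stop codon in Map1lc3a, Gabarap, Gabarapl1 and Gabarapl2. Over their coding sequences, Gabarap and Gabarapl1 were 74.9% identical. The other pairs of these 4 lay between 51.4% and 63.8%.

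TFEB and its relatives bind the E-box letters CACGTG, best within the longer word TCACGTGA, so the members' promoters were searched for both words, which read the same on both strands. The promoter table of RefSeq (GRCm38.p6) gives 300 bases per start site, 250 before and 50 after it, and held 32 of the 39 members, without Becn1, Map1lc3a, Rb1cc1, Atg16l1, Atg12, Wdfy3 and Pik3c3. CACGTG was found in 4 of these 32 (12.5%), against 8.09% of the 27025 genes in that table. TCACGTGA was found in 1 of the 32 (3.13%), against 1.12%, and that match is also one of the CACGTG matches. The matched stretches are printed on the gene's own strand with CACGTG in capitals, to show where the letters lie in each promoter.
Atg3 (chr16:45158715-45158783, plus strand): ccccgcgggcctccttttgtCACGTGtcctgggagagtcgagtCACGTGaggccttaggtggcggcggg
Atg5 (chr10:44268305-44268338, plus strand): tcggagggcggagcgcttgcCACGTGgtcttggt
Atg7 (chr6:114670944-114670989, plus strand): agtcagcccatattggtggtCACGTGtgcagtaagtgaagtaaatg
Atg14 (chr14:47568430-47568455, minus strand): cctggataaaaacaaaatccCACGTG
The 2 matches of Atg3 began 94 and 71 bases before the start, the nearer one being the TCACGTGA, and those of Atg5, Atg7 and Atg14 began 14, 132 and 1 bases before it. A match is a description of the letters and no evidence of binding. The log2 fold changes (Fat over Con) of these 4 genes were -0.09, -0.07, -0.05 and 0.04, and none of them passed the test.

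The 4 libraries held 33573852 to 40785872 reads on the listed genes, and a single read was worth 0.0244 to 0.0295 CPM, a read count scaled to the size of the library. Reads on the members made up 0.355% to 0.364% of each library, and the smallest count of a member in a library was 312 reads, so none was near the floor of 3 reads. That floor covers counting error only. All 8 macrophage markers were present, with a summed level of 33920 to 35962 CPM in Con and 26918 to 28504 CPM in Fat, and 2 of them (Mertk and Fcgr1) were lower in Fat. Most of that sum was Lyz2 (26819 to 28720.5 CPM in Con and 20347 to 21516 CPM in Fat, adjusted p = 0.209), and the other 7 markers summed to 7101 to 7241 CPM in Con and 6571 to 6988 CPM in Fat. The 10 adipocyte markers summed to 0.177 and 0.187 CPM in Con and to 11.4 and 6.0 CPM in Fat, and 5 of them had 0 reads in both Con libraries. Both adipocyte markers with enough signal to be tested (Cidec and Car3) were called higher in Fat. They passed the filter through the Fat libraries alone, with at most 2 reads in a Con library. Their calls follow from how they entered the test and add nothing to the summed levels. Fibroblast markers summed to 512 to 656 CPM over the libraries, with 1 of 5 tested (Dcn) lower in Fat, and neutrophil markers to 309 to 361 CPM. Lymphocyte, endothelial and erythroid markers summed to at most 21.6, 7.59 and 0.195 CPM in any library. Of the 13 tested markers of these lists and of neutrophils, 0 were called by limma, with 3 at an unadjusted p under 0.05, and 0, 3 and 0 by edgeR's quasi-likelihood test, its exact test (Mpo, Cd3g and Ngp) and DESeq2. The part of other cells in the results below was not tested, and in such bulk samples fewer cells of a type and less RNA per cell cannot be told apart.

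No member of the autophagy machinery passed the test of Fat against Con. Fitted by limma to log2(CPM + 0.1), with Benjamini-Hochberg adjustment over all 12470 tested genes, 0 of 39 members were called higher and 0 of 39 lower at an adjusted p under 0.05. Of all tested genes, 3.99% were called higher and 5.0% were called lower. The smallest adjusted p of a member was 0.0799 (Mitf). At an unadjusted p under 0.05, 6 of the 39 (15.4%) stood out, against 24.1% of all tested genes: Atg13 and Atg12 were higher and Ulk2, Map1lc3b, Pink1 and Mitf lower. On whole reads recovered from the CPM values, 0 members were called by edgeR's quasi-likelihood test, by its exact test and by DESeq2, which called 9.13%, 13.2% and 8.43% of the tested genes in either direction. The members at an unadjusted p under 0.05 numbered 7, 4 and 1 with these tools. The share of all tested genes at that threshold was computed for limma only, so these counts have no background beside them.

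The uncalled differences were also small. The members' log2 fold changes lay between -0.21 and 0.17, with standard errors of 0.05 to 0.12 and a median of 0.01, which was also the median of all tested genes. Their median absolute log2 fold change was 0.06, against 0.12 over all tested genes and 0.10 over those with a mean of at least 5 CPM. Of all tested genes, which include genes at lower levels than any member, 29.2% had a larger absolute log2 fold change than any member. The 95% interval lay within 0.5 of 0 on the log2 scale for all 39 members, and within 0.3 for 33 of them. The lowest bound was -0.47 (Atg10, a difference of -27.9%) and the highest 0.31 (Tfeb, a difference of 24.1%), and larger differences lay outside the intervals. The plot of members among all tested genes places them in the middle of the cloud at their expression levels. At or above the lowest mean level of a member (9.33 CPM) there were 8541 tested genes, of which 913 were called. The smallest absolute log2 fold change of a called gene there was 0.21, and 1 of the 913 was no larger than the largest member's. Differences of the members' size were thus hardly ever called, so their size and the lack of calls are not separate results.

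**Figure D1:**
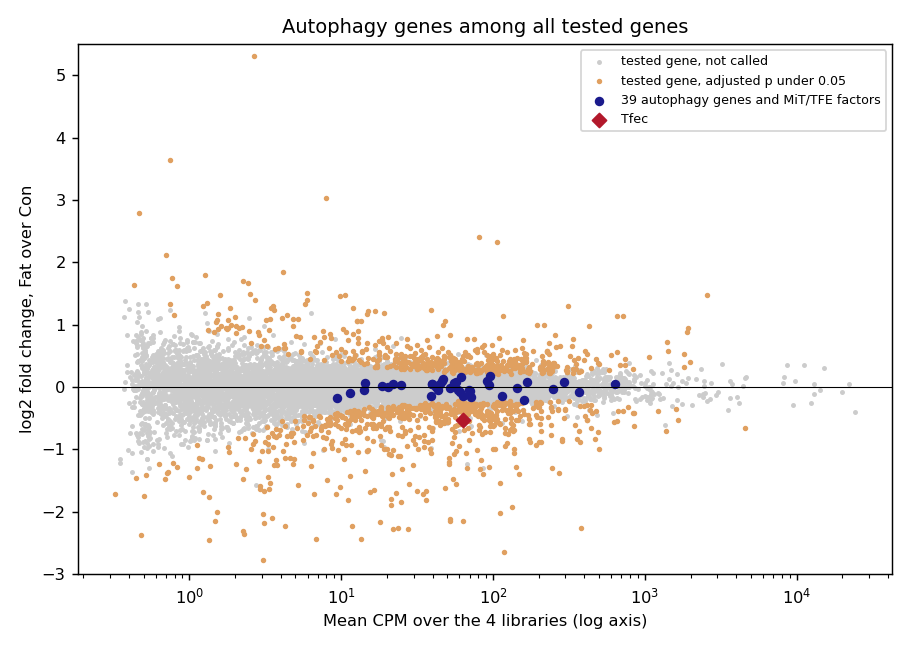
Each point is a tested gene, with its mean CPM over the 4 libraries on a log axis and its log2 fold change (Fat over Con) on the vertical axis. Genes called at an adjusted p under 0.05 are orange, the 39 autophagy genes and factors are dark blue and lie between -0.21 and 0.17, and Tfec is the red diamond at -0.53.

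The groups were also compared by whether their libraries overlapped. The 2 groups did not overlap, in either direction, for 21 of 39 members (53.8%), against 55.6% of all tested genes. In CPM, 8 of these 21 were higher in Fat and 13 lower. Of all 12470 tested genes, 3664 were apart and higher and 3271 apart and lower. In the deposited TPM values, which are also scaled for gene length, 21 members were apart, 13 higher and 8 lower. Of all tested genes, 56.8% were apart in TPM in either direction. In both units, 8 higher and 8 lower members were apart. The split by direction over all tested genes was not computed in TPM or for both units, so no lean is read from these counts.

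**Figure D2:**
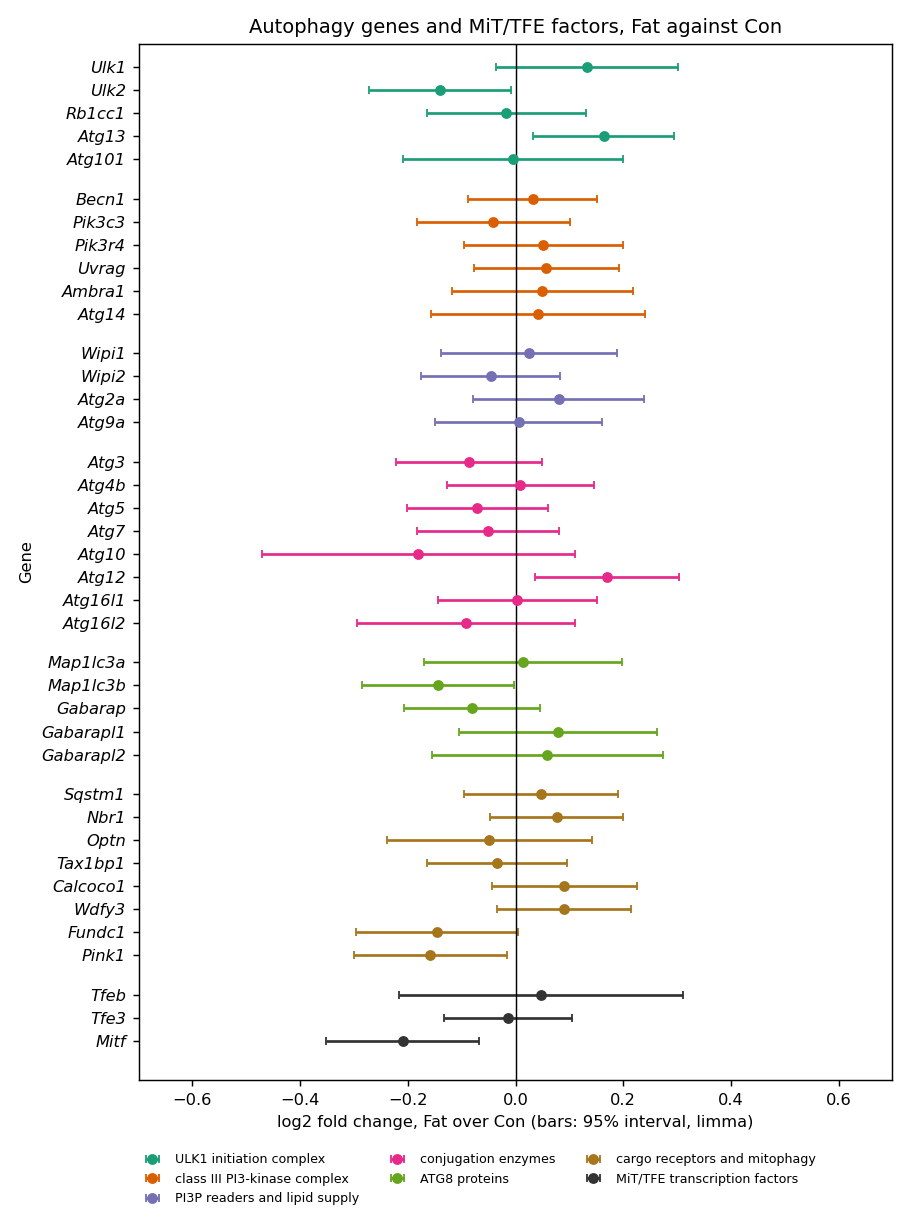
The log2 fold change (Fat over Con) of each of the 39 genes is drawn as a point with its 95% interval from limma, coloured by role. All intervals lie within 0.5 of 0, and 6 of them leave out 0 before adjustment for the number of genes tested.

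In the ULK1 initiation complex, Ulk1 and Ulk2 are the kinases, Rb1cc1 (FIP200) is the scaffold, and Atg13 and Atg101 are adaptor subunits. Atg13 measured 58.1 and 57.7 CPM in the Con libraries and 66.1 and 63.5 CPM in the Fat libraries. The groups did not overlap, and the log2 fold change was 0.16 (SE 0.06, 95% interval 0.03 to 0.29, adjusted p = 0.124). Ulk2 measured 68.0 and 65.0 CPM in Con against 60.1 and 60.4 CPM in Fat. Both Fat values were lower, with a log2 fold change of -0.14 (SE 0.06, adjusted p = 0.181). The other kinase gene, Ulk1, measured 47.2 and 42.7 CPM in Con and 47.6 and 51.0 CPM in Fat. Both Fat values were higher, but the first Con library was close to the first Fat library. The log2 fold change of Ulk1 was 0.13 (SE 0.07, adjusted p = 0.32). Rb1cc1 and Atg101 overlapped between the groups, with log2 fold changes of -0.02 and -0.0045. The 5 log2 fold changes thus had both signs, and none passed the test.

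The class III PI3-kinase complex makes PI3P on the forming membrane. Its catalytic subunit is Pik3c3 (VPS34), Pik3r4 is the kinase-like regulatory subunit, Becn1 is the central scaffold, and Atg14 and Uvrag define alternative forms of the complex, while Ambra1 binds Becn1. The smallest p in this group belonged to Uvrag. It measured 53.4 and 55.9 CPM in Con and 56.5 and 57.1 CPM in Fat, so that the groups were apart by a narrow margin, with a log2 fold change of 0.06 (SE 0.06, 95% interval -0.08 to 0.19, adjusted p = 0.601). Becn1 measured 93.2 and 93.0 CPM in Con and 94.8 and 95.6 CPM in Fat, with a log2 fold change of 0.03. The other 4 subunits overlapped between the groups and had log2 fold changes between -0.04 and 0.05. All 6 intervals lay between -0.18 and 0.24.

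Among the PI3P readers and lipid supply, Wipi1 and Wipi2 bind PI3P, Atg2a is a lipid transfer protein and Atg9a is the scramblase carried by vesicles. Atg2a had the smallest p of these 4. It measured 56.1 and 55.5 CPM in Con and 55.9 and 62.2 CPM in Fat, the first Fat library lying between the Con libraries and the second above them, with a log2 fold change of 0.08 (SE 0.07, 95% interval -0.08 to 0.24, adjusted p = 0.527). Without the second Fat library the log2 fold change of Atg2a was 0.00, and without the first it was 0.16. The other 3 genes had log2 fold changes between -0.05 and 0.03, and in CPM the groups were apart for Wipi2 alone.

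The conjugation enzymes attach ATG8 to lipid. Atg7 is the E1-like enzyme of both systems, Atg3 and Atg10 are the E2-like enzymes, Atg4b is the ATG8 protease, and Atg12 is the ubiquitin-like protein that is joined to Atg5 and acts with Atg16l1. Atg12 measured 87.8 and 91.1 CPM in Con and 104 and 97.8 CPM in Fat. Both Fat values were above both Con values, with a log2 fold change of 0.17 (SE 0.06, 95% interval 0.04 to 0.30, adjusted p = 0.12), the highest log2 fold change of any member. Its conjugation partner Atg5 measured 73.8 and 70.3 CPM in Con and 69.1 and 68.1 CPM in Fat, a log2 fold change of -0.07 with an interval of -0.20 to 0.06. Atg10, the least abundant member in CPM, measured 11.0 and 8.90 CPM in Con and 8.36 and 9.07 CPM in Fat, with a log2 fold change of -0.18 and the widest standard error among the members (0.12). Both Fat values lay under both Con values for Atg3, Atg5, Atg7 and Atg16l2 in CPM, with log2 fold changes of -0.05 to -0.09. In TPM this held for Atg16l2 but not for Atg3, Atg5 and Atg7.

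The ATG8 genes were expressed at very different levels. In TPM, which allows levels of different genes to be compared, Gabarap averaged 719.9 over the 4 libraries, Gabarapl1 363, Map1lc3b 146, Map1lc3a 38.9 and Gabarapl2 32.1. Of the summed ATG8 level, Gabarap made up 53.4% to 57.1% in a library, Gabarapl1 26.0% to 30.5% and Map1lc3b 10.4% to 11.7%. The sums were 1282 and 1322 TPM in Con and 1285 and 1310 TPM in Fat, which overlap. The TPM ranges of the 5 genes over the 4 libraries did not overlap.

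**Figure D3:**
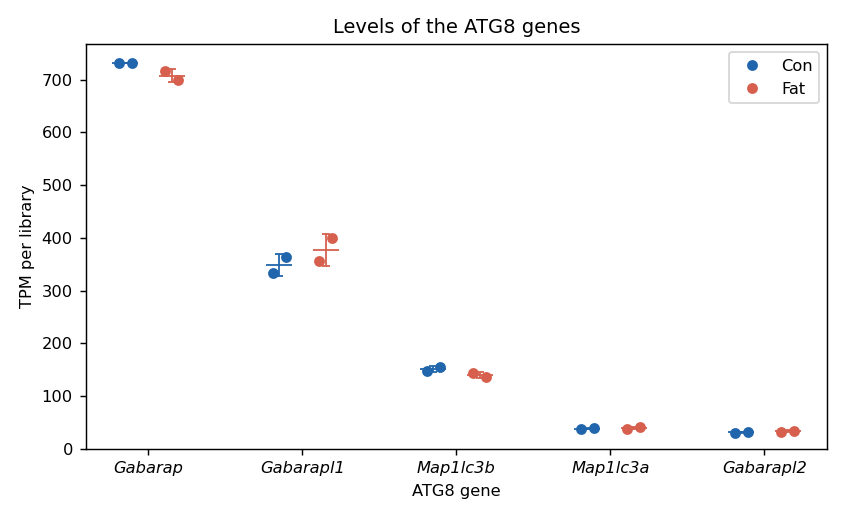
TPM of each ATG8 gene in each library, Con in blue and Fat in red, with the mean and the SD of 2 libraries as a bar and whiskers. Gabarap averages 719.9 TPM and Map1lc3a and Gabarapl2 average 38.9 and 32.1 TPM, and the order of the 5 genes is the same in all libraries.

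Between the groups, Map1lc3b, the gene of the LC3 protein most used as an autophagosome marker, had the smallest p of the ATG8 genes. It measured 116 and 124 CPM in Con and 111 and 105 CPM in Fat. Both Fat libraries were lower, with a log2 fold change of -0.14 (SE 0.06, adjusted p = 0.2) and a 95% interval that runs from a difference of -17.9% to one of -0.168%. Gabarap measured 376 and 383 CPM in Con and 362 and 354 CPM in Fat, also without overlap, with a log2 fold change of -0.08 (interval -0.21 to 0.04). Gabarapl1 measured 270.4 and 301 CPM in Con and 284 and 319.5 CPM in Fat. Its groups overlapped, and the log2 fold change was 0.08 (interval -0.10 to 0.26). Map1lc3a and Gabarapl2 overlapped too, with log2 fold changes of 0.01 and 0.06.

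Cargo receptors and mitophagy genes were the next group. Sqstm1 (p62) and Nbr1 bind ubiquitinated cargo, Optn, Tax1bp1 and Calcoco1 are further receptors, Wdfy3 (ALFY) is an adaptor for aggregates, Fundc1 is a mitophagy receptor of the outer mitochondrial membrane, and Pink1 is the kinase that marks damaged mitochondria. Sqstm1 was among the most abundant members (689 TPM on average, overlapping with Gabarap). It measured 644 and 610.3 CPM in Con and 642 and 654 CPM in Fat, with overlapping groups and a log2 fold change of 0.05 (SE 0.06, interval -0.10 to 0.19). Pink1 had the smallest p of the group, at 73.5 and 77.3 CPM in Con and 65.5 and 69.7 CPM in Fat. Both Fat libraries were lower, with a log2 fold change of -0.16 (SE 0.06, 95% interval -0.30 to -0.02, adjusted p = 0.165). Fundc1 stood at 41.6 and 39.9 CPM in Con and 35.8 and 37.8 CPM in Fat, a log2 fold change of -0.15 (adjusted p = 0.22). Nbr1, Calcoco1 and Wdfy3 were higher in both Fat libraries by log2 fold changes of 0.08 to 0.09, with adjusted p values of 0.357 to 0.437.

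The 3 MiT/TFE factors differed in how closely their libraries agreed. Tfeb measured 42.8 and 45.2 CPM in Con and 40.0 and 51.6 CPM in Fat, so that the Fat libraries lay on either side of Con. Its log2 fold change was 0.05 (SE 0.11, 95% interval -0.22 to 0.31, adjusted p = 0.845), and it was 0.23 without the first Fat library and -0.14 without the second. Tfe3 measured 144 and 145 CPM in Con and 142 and 144 CPM in Fat. Its log2 fold change was -0.01 (SE 0.05, 95% interval -0.13 to 0.10, adjusted p = 0.902), and it was 0.018 in TPM.

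Mitf came closest to the threshold of all members. It measured 180.2 and 165 CPM in Con (mean 173 ± 10.7, SD, n = 2) and 147 and 151 CPM in Fat (149 ± 2.46, SD, n = 2). Both Fat libraries lay under both Con libraries, with a log2 fold change of -0.21 (SE 0.06, 95% interval -0.35 to -0.07, which is a difference of -21.6% to -4.55%) and an adjusted p of 0.0799. Without the second Con library the log2 fold change was -0.27 with an adjusted p of 0.0346, and with each of the other libraries left out the adjusted p lay between 0.209 and 0.281.

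The fourth gene of the family, Tfec, is no member of the list but fell. TFEC is a MiT/TFE factor with expression concentrated in cells of the macrophage lineage. It measured 80.3 and 69.2 CPM in Con and 56.4 and 47.0 CPM in Fat. The groups did not overlap, and the log2 fold change was -0.53 (SE 0.10, 95% interval -0.77 to -0.29, adjusted p = 0.0223). The call was lost without the first Con library (log2 fold change -0.43, adjusted p = 0.0512) and without the second Fat library (-0.40, adjusted p = 0.0586), and in TPM (-0.50, adjusted p = 0.0572). Of the summed TPM of the 4 factors, Tfec made up 33.5% and 30.7% in Con and 28.0% and 23.3% in Fat. The sums were 295 and 272 TPM in Con and 251 and 251 TPM in Fat. The differences between the log2 fold changes of Tfec and of the other factors were not tested.

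**Figure D4:**
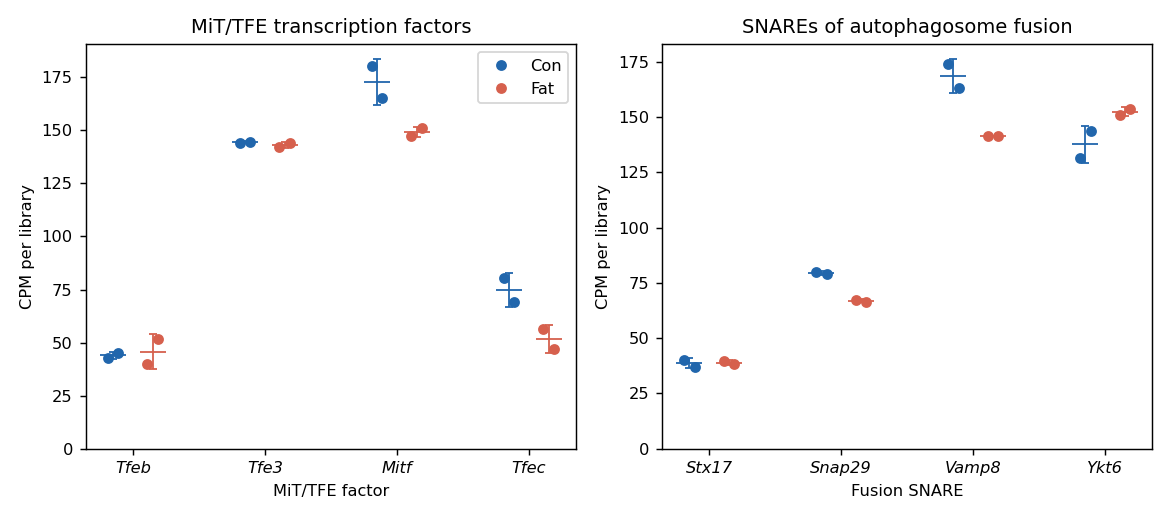
CPM in each library (Con blue, Fat red) with the mean and the SD of 2 libraries, for the MiT/TFE factors on the left and for SNARE proteins of autophagosome fusion on the right. Tfeb and Tfe3 overlap or nearly touch between groups, Mitf and Tfec are lower in Fat, and of the SNAREs Snap29 and Vamp8 are lower in Fat while Stx17 overlaps and Ykt6 lies higher in Fat.

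The rest of the pathway was taken from 5 lists of other genes, 102 genes in all, of which 101 were tested (Rragb had too few reads). Of the 101, 2 (1.98%) were called higher and 6 (5.94%) lower, against 3.99% and 5.0% of all tested genes, shares near or under the background. Their median log2 fold change was 0.01. Of 12 other core autophagy genes, 0 were called by limma, with 2 at an unadjusted p under 0.05, and 0, 1 and 0 by edgeR's quasi-likelihood test, its exact test (Atg2b) and DESeq2. Of 15 genes of autophagosome-lysosome fusion, 0 were called higher and 2 lower, against 3.99% and 5.0% of all tested genes. Both of the 2 encode SNARE proteins, and only their RNA was measured. SNAREs pull membranes together, and STX17 with SNAP29 on the autophagosome pairs with VAMP8 on the lysosome. Snap29 measured 80.1 and 78.9 CPM in Con and 67.3 and 66.5 CPM in Fat, a log2 fold change of -0.25 (SE 0.05, adjusted p = 0.0302). Vamp8 measured 174 and 163 CPM in Con and 141 in both Fat libraries, a log2 fold change of -0.25 (SE 0.06, adjusted p = 0.0336). Stx17 had a log2 fold change of 0.01 (95% interval -0.15 to 0.17) with overlapping groups. Ykt6, another SNARE of the autophagosome, measured 132 and 144 CPM in Con and 151 and 154 CPM in Fat, higher in both Fat libraries, with a log2 fold change of 0.15 (SE 0.06, adjusted p = 0.187). With a library left out the adjusted p of Snap29 lay between 0.0556 and 0.148, above the threshold in every case, and that of Vamp8 between 0.0222 and 0.131, under it only without the second Con library. In TPM neither was called (adjusted p = 0.0789 for Snap29 and 0.0946 for Vamp8).

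Of 12 other cargo receptors, Bnip3, a mitophagy receptor, rose and Ncoa4, the receptor for ferritin, fell. Bnip3 measured 20.8 and 17.8 CPM in Con and 26.3 and 25.3 CPM in Fat, a log2 fold change of 0.42 (SE 0.09, adjusted p = 0.032). Ncoa4 measured 43.3 and 44.6 CPM in Con and 36.0 and 30.3 CPM in Fat, a log2 fold change of -0.41 (SE 0.09, adjusted p = 0.031). In neither gene did the groups overlap. With a library left out the adjusted p of Bnip3 lay between 0.0136 and 0.0853, under the threshold only without the first Con library, and that of Ncoa4 between 0.00587 and 0.115, under it only without the first Fat library. In TPM Ncoa4 was not called (adjusted p = 0.0785).

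Among 34 tested regulators in mTORC1, AMPK and TFEB signalling, the genes called were Tfec, described above, and Rragd. Rragd encodes RagD, a Rag GTPase that recruits mTORC1 to lysosomes and is itself a known TFEB target. It measured 21.9 and 23.6 CPM in Con and 17.8 and 18.3 CPM in Fat, a log2 fold change of -0.33 (SE 0.08, adjusted p = 0.0389). The call was lost with DESeq2 (adjusted p = 0.0594), in TPM (adjusted p = 0.103) and with any library left out (adjusted p between 0.063 and 0.138). Both Fat values were lower than both Con values.

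Of 28 lysosomal genes known as TFEB targets, 1 was called higher and 1 lower, against 3.99% and 5.0% of all tested genes. At an unadjusted p under 0.05, 4 were higher and 6 lower. Together these were 35.7% of the 28, against 24.1% of all tested genes and 26.0% of those with a mean of at least 5 CPM. The gene called higher was Atp6v1h. This subunit of the proton pump that acidifies lysosomes measured 154 and 164 CPM in Con and 188 and 192 CPM in Fat, a log2 fold change of 0.26 (SE 0.06, adjusted p = 0.0335). With a library left out the adjusted p of Atp6v1h lay between 0.0191 and 0.15, under the threshold only without the second Con library. The median log2 fold change of these 28 genes was -0.06, against 0.01 over all tested genes.

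Some members share transcript sequence with other genes, which limits how their reads can be assigned. Stretches of 75 bases, the read length, were taken every 5 bases along a single transcript of each member. They were aligned to all transcripts with up to 2 mismatches, and the members' other transcripts were not cut into stretches. No stretch was found in another gene for 24 of the 39 members, Mitf, Tfeb, Tfe3 and Atg13 among them. More than 20% of stretches were shared for Atg9a (43.6%, with Gm29253), Becn1 (43.4%, most often with Cntd1) and Rb1cc1 (25.9%, most often with Gm13961). A stretch could match on either strand. The values of these genes are therefore less certain, but the share of their reads affected was not measured. Among the ATG8 genes, Gabarapl2 shared 18.4% of its stretches (most often with Gm3724), Gabarapl1 17.7% (with 1700101I11Rik) and Map1lc3b 12.8% (most often with Gm6055). Gabarap and Map1lc3a shared none. In the annotation, 43.9% of the exon bases of Becn1 overlap Cntd1 on the other strand and 28.3% of those of Gabarapl1 overlap 1700101I11Rik on the other strand. On the same strand, 31.8% of the exon bases of Atg9a and 6.70% of those of Pink1 overlap other genes, which strand alone cannot resolve. The library kit keeps strand, but whether the counting used it was not given in the sources used here.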

How the data were processed

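RNA was prepared with a stranded mRNA kit and sequenced as single reads of 75 bases. The authors deposited CPM, which are reads per gene scaled to library size. The TPM that the authors also deposited are further scaled for gene length. The submitters' processing notes name GRCm39, and the aligner and counting settings were not given in the sources used here. No coordinates are given for the measured genes for this reason, and the promoters, transcripts and exons come from GRCm38.

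Samples were grouped as Con and Fat by their labels, 2 libraries each. A gene was tested where 2 or more of the 4 libraries reached 0.5 CPM, with limma 3.58.1 (R 4.3.3), two-sided, after adding a pseudocount of 0.1 CPM and taking log2, with eBayes set to follow the trend of variance with mean, and called at a Benjamini-Hochberg adjusted p under 0.05 over all tested genes. Fold changes are on that scale. Intervals are 95% intervals from limma. An exact permutation test of 2 against 2 libraries cannot go below p = 0.333 and was not used. Divided by the value of 1 read, 100% of the CPM values came out whole within 0.01, so reads were recovered for edgeR 4.0.16 and DESeq2 1.42.0, the paper's own comparison having used edgeR. The tests were also run on simulated data in which changed genes had absolute log2 fold changes of 0.5 or 1. These are larger than that of any member, so the simulation does not show whether differences of the members' size would be found.

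Members and other lists were chosen with earlier results of these data known. Given in full are called members, the MiT/TFE factors, in each role the member with the smallest p, members with an absolute log2 fold change of at least 0.25 and no overlap (there were 0), called genes of the other lists, and Tfec. Ulk1, Ulk2, Becn1, Atg5, Atg10, Gabarap, Gabarapl1, Sqstm1, Fundc1 and Stx17 were added after their values were seen. A called gene and a sequence are not reported here. As alternatives, TPM or CPM rescaled by median ratios replaced CPM, the pseudocount was set to 1 CPM, the filter was dropped or raised to a mean of 5 CPM, the variance trend was dropped, a replicate block was added, the other tools or an unadjusted p were used, and libraries were left out one at a time. Shared sequence was searched with BWA 0.7.19 in GENCODE vM21 transcripts. Other steps used Python 3.11.15, pandas 2.3.3, Biopython 1.88 and matplotlib 3.10.9.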

Additional observations from a re-analysis of the deposited data

How the results depend on the processing

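The count of members called (0 higher and 0 lower) was unchanged by TPM, median ratios, a pseudocount of 1 CPM, a filter at a mean of 5 CPM or none, no mean-variance trend and the 3 tests on recovered reads. An unadjusted p gave 2 higher and 4 lower. With a library left out, 0 members were higher and 0 to 1 lower, the 1 being Mitf without Con replicate 2 (log2 fold change -0.27, adjusted p = 0.0346). With the replicate number as a block (replicate block), 2 members were called higher (Atg12, adjusted p = 0.0332, and Atg13, 0.0451) and 2 lower (Mitf, 0.0082, and Pink1, 0.0484), while 20.2% of all tested genes were called. The deviations of same-numbered libraries from their group means correlated at 0.20 over 12470 genes, but with 2 pairs and no label saying what a number marks, they are taken to share only a number. Over the alternatives, the adjusted p of Mitf ran from 0.0082 to 0.281.

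Of the other pathway genes, 2 higher and 6 lower were called. The replicate block gave 10 higher and 11 lower, no mean-variance trend 0 and 0, edgeR's exact test 7 and 10, and an unadjusted p 13 and 14. DESeq2 gave 4 higher and 8 lower, edgeR's quasi-likelihood test and median ratios each gave 2 and 8, and TPM gave 2 and 1. With a library left out, 0 to 2 were higher and 1 to 3 lower. Without the trend, 0.249% of all tested genes were called. Directions turned for Tfeb (0.05, with -0.14 to 0.23 over the left-out libraries and -0.14 without Fat replicate 2) and Tfe3 (-0.01, and 0.018 in TPM). Of 252 values of single genes under an alternative, 209 kept their direction and side of the threshold, 36 lost the call, 5 gained it and 2 turned. The 252 pool called and uncalled genes. Only a gene called in the main fit can lose its call, so the called genes were less stable than the 36 of 252 makes them look. TPM moved the median log2 fold change of all tested genes from 0.01 to 0.04. The causes were not tested. With 2 libraries a group, each fit rests on few degrees of freedom, and a fit with a library left out assumes that the lone library varies like the others.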
